A study of Mus musculus with 16 samples.

Results

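The immediate early transcription factors measured here are 10 genes taken by name from the 33641 gene symbols of each library: Jun, Junb and Jund of the Jun family, Fos, Fosb and Fosl2 of the Fos family, the zinc finger genes Egr1 and Egr2, the stress-responsive gene Atf3, and Ier2. All 10 have a value in every library. The libraries hold RNA of subcutaneous white adipose tissue (scWAT) or the left ventricle of C57BL/6J mice aged 28 weeks, which were wild-type or labelled Adipo-HuR KO, a deletion of HuR confined to adipocytes. Elavl1 encodes HuR, which binds RNA. Adipose tissue came from 5 mice without the deletion (wild-type A5, A7, A8, A12, A14) and 3 mice labelled knockout (A24, A26 and A30), and heart from 4 wild-type mice (A5, A7, A8 and A14) and 4 mice labelled knockout (A25, A29, A30 and A31). The 16 libraries are from 11 mice, of which 5 gave both tissues. The Cre driver, the sex of the mice and whether they were littermates are not stated in the labels.

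Immediate early genes are transcribed within minutes of a stimulus such as a growth factor, mechanical stretch, stress or tissue handling, through factors already present in the cell, and their transcripts are short-lived, many of them carrying AU-rich elements of the kind that HuR binds. Fos and Jun proteins pair to form AP-1, which binds the TRE sequence. Fos proteins need a Jun partner, and Jun proteins can also pair with one another or with ATF proteins such as ATF3. EGR1 and EGR2 bind GC-rich sites and are held back by the corepressors NAB1 and NAB2. In heart, AP-1 and EGR genes are known for their early response to haemodynamic load, and in fat tissue they are known for the first hours of adipocyte differentiation and for activation of immune cells.

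The start regions of Fos, Junb, Egr2 and Atf3 are shown because Junb, Egr2 and Atf3 are high in 3 of the 4 hearts labelled knockout, as described further on, and Fos is the classical member with which they can be compared. Each window runs from 250 bases before to 50 bases after a start site in RefSeq (build GRCm38.p6), 5′ to 3′ on the strand of the gene. Fos is at chr12:85473640-85473939, plus strand, Junb at chr8:84978699-84978998, minus strand, Egr2 at chr10:67537619-67537918, plus strand and Atf3 at chr1:191183284-191183583, minus strand. Capitals mark the CRE core TGACG, which reads CGTCA on the other strand, the TATA box TATAAA and the CArG box that serum response factor binds.
Fos: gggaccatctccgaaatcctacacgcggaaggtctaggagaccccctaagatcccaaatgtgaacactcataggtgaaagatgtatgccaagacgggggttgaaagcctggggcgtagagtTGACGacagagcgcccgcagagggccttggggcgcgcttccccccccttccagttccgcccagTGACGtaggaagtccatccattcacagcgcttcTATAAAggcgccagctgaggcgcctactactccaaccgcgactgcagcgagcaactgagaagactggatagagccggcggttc
Junb: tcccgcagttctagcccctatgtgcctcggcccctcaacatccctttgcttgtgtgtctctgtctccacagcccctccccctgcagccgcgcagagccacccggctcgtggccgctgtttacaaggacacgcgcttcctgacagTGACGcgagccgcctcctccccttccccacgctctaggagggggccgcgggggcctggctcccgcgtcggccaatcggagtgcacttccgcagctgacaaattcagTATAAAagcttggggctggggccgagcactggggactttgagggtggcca
Egr2: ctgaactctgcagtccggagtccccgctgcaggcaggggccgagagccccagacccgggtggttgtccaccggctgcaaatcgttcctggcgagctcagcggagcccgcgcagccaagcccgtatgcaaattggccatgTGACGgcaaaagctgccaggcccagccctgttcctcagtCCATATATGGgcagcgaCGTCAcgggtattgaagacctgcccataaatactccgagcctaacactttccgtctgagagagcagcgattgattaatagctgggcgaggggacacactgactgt
Atf3: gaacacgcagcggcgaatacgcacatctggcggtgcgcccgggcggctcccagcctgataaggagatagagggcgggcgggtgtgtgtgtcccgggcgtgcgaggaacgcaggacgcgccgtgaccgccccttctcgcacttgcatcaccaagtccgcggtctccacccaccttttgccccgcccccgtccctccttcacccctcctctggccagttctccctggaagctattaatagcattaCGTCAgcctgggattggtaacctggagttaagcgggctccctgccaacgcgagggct
RefSeq gave a window for 8 of the 10 genes, and none is shown for Ier2 or Egr1. The CRE core was found in a window of 5 of these 8 genes (Fos, Fosb, Junb, Egr2 and Atf3), against 20.8% of the 32851 windows of all genes. It began at positions -129 and -66 from the start site in Fos, at -106 in Junb, at -111 and -55 in Egr2 and at -7 in Atf3. For Egr2, which has 5 windows, the one shown is the first of those with the most matches. Its window starting at 67535249 had no match, and that starting at 67537316 had a CArG box and no CRE core. The TATA box was in the windows of Fos, at -33, and Junb, at position 0, against 13.6% of all windows. The CArG box was in a window of Egr2 alone, at -72, against 1.63% of all windows. The EGR site GCGNGGGCG was in the windows of Fosb and Fosl2, against 5.55% of all. The full CRE TGACGTCA (1.79% of all windows) and the TRE TGANTCA (7.81%) were in no window of the 8 genes. The CRE core is part of the full CRE, both strands were searched, and Egr2 has 5 overlapping or neighbouring windows, so these counts describe letters and nothing further.

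Values are TPM, which gives each library the same total, a level per transcript length that can be compared between genes, with no record of sequencing depth. Elavl1 was at 33.4, 34.5, 27.6, 19.5 and 19.0 TPM in the wild-type scWAT libraries (n = 5) and stood at 42.9, 42.0 and 36.2 TPM in the 3 labelled knockout, so the deletion is not seen at the level of this transcript in whole tissue. The libraries matched their tissue: the cardiomyocyte gene Myh6 was at 1012 to 4769 TPM in heart and at most 0.146 TPM in scWAT, and the adipocyte gene Adipoq at 3300 to 6920 TPM in scWAT and at most 1.72 TPM in heart. Some libraries stood apart within their group. Heart A29, labelled knockout, had summed fibroblast markers of 223 TPM and summed macrophage markers of 46.0 TPM, close to the wild-type hearts (180 to 280 and 50.9 to 80.2 TPM), whereas the other hearts labelled knockout had 2030 to 3126 and 319 to 365 TPM. The scWAT library A26 had summed B cell markers of 445 TPM and T cell markers of 303 TPM, against at most 19.4 and 10.2 TPM in the other scWAT libraries. A24 and A30 had 3634 and 7151 TPM of skeletal muscle markers, against 52.9 to 772 TPM in wild-type scWAT and 290 TPM in A26. Mitochondrially encoded transcripts took 43.4% to 60.6% of the TPM in heart and 6.14% to 14.4% in scWAT, which lowers every other heart value on this scale. In whole tissue, fewer cells of a type and less RNA per cell cannot be told apart.

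Jund was the most abundant of the 10 genes in 16 of 16 libraries, and Jun was the second in 14. JUND is the Jun protein of resting cells, and it had means of 64.3 ± 16.6 TPM (SD, n = 5) in wild-type scWAT and 38.0 ± 15.7 TPM (n = 4) in wild-type heart. Jun, the founding AP-1 subunit, had means of 28.3 ± 3.39 and 19.9 ± 7.33 TPM. In wild-type scWAT the order by mean then ran Junb, Fosl2, Ier2, Fos, Atf3, Egr1, Egr2 and Fosb, and in this order only Jund and Jun had ranges that did not overlap with the neighbour's. In wild-type heart it ran Egr1, Junb, Ier2, Fosl2, Fos, Atf3, Fosb and Egr2, and only Atf3 and Fosb stood apart in range. Fosb was the lowest of the 10 in 14 of 16 libraries and never exceeded 1.76 TPM. Fosl2, a Fos relative also known from adipocytes and bone, was above Fos in 14 of 16 libraries.

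**Figure D1:**
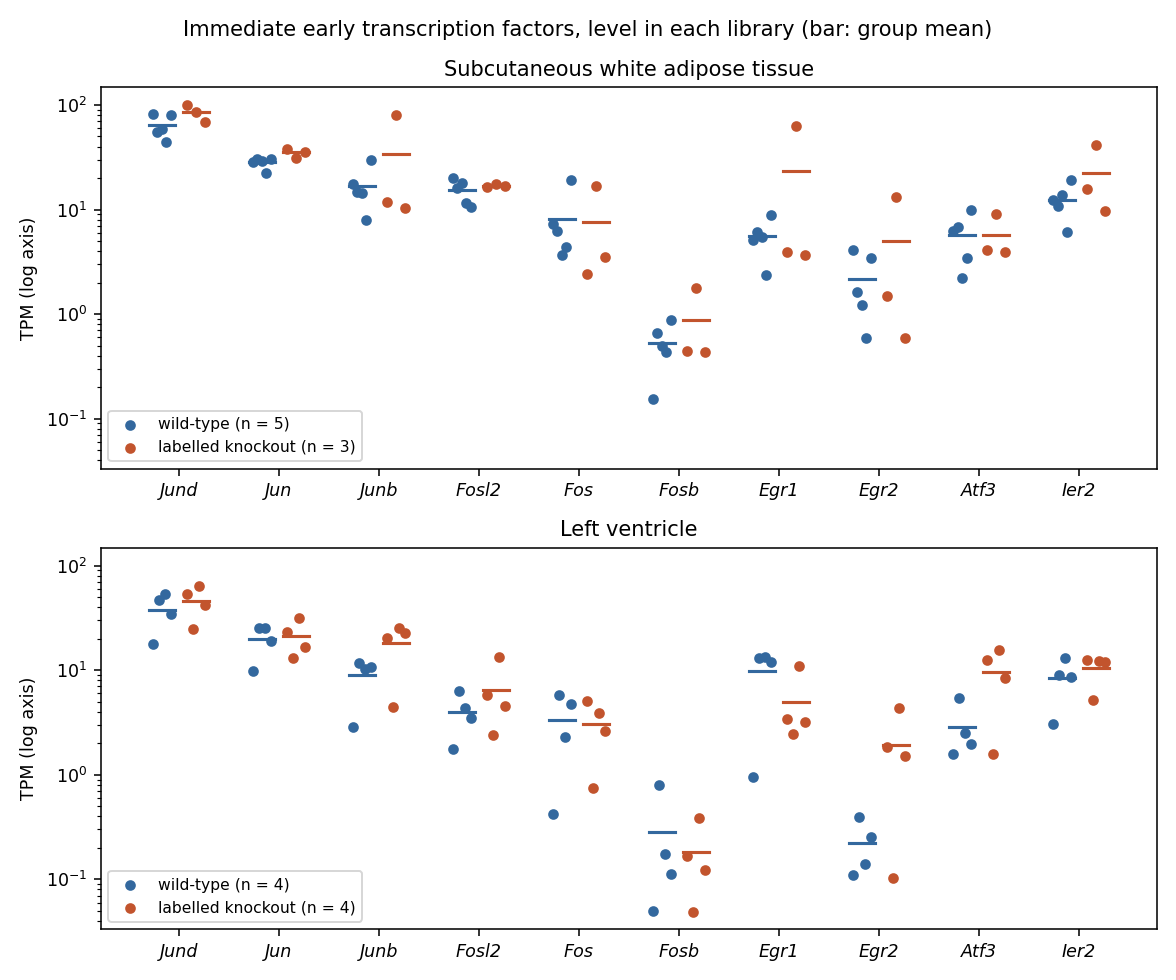
TPM (log axis) of the 10 genes in scWAT (upper panel) and left ventricle (lower panel), with 1 point per library and a bar at the group mean. Jund is at the top in every library, and among hearts labelled knockout the highest value of Egr2 is 42.2 times its lowest.

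The families kept different proportions. The summed Jun family was 30.4 to 88.9 TPM in wild-type hearts and the sum of Fos, Fosb and Fosl2 was 2.23 to 12.9 TPM. This sum leaves out Fosl1, a Fos family gene outside the 10, which was at 0.363 to 1.41 TPM in the hearts and 0.765 to 4.27 TPM in scWAT. In wild-type scWAT the sums were 74.9 to 141 and 16.5 to 30.7 TPM. The Jun family sum thus exceeded that of Fos, Fosb and Fosl2 in all 16 libraries, by a ratio of 4.36 to 7.82 in scWAT and 6.51 to 13.6 in heart. With Fosl1 counted, these ratios would be lower. Jund made up 43.6% to 66.8% of the Jun family over the 16 libraries. The share of Junb was 9.39% to 16.7% in the wild-type hearts and 10.5% in A29, and it was 21.0%, 20.9% and 28.0% in hearts A25, A30 and A31. In scWAT, Junb made up 40.5% of the Jun family in A26 and 7.78% to 21.1% in the other 7 libraries.

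In heart, the genotype comparison asks what in the ventricle goes with HuR loss in fat cells. No gene of the group passed the threshold over all 8 libraries, an adjusted p under 0.05 by limma on log2(TPM + 1), adjusted over all genes tested. Junb, Egr2 and Atf3 had high values in 3 of the 4 hearts labelled knockout (A25, A30 and A31) and a value within or below the wild-type range in A29. Fos, Jun and Jund had overlapping values, and Egr1 was at 11.8 to 13.4 TPM in 3 wild-type hearts and at 2.43 to 3.42 TPM in 3 hearts labelled knockout.

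Atf3, a bZIP factor induced by cell stress, was at 1.57, 5.45, 2.49 and 1.99 TPM in wild-type hearts A5, A7, A8 and A14. Hearts A25, A29, A30 and A31, labelled knockout, had 12.6, 1.58, 15.6 and 8.50 TPM. Hearts A25, A30 and A31 lie above every wild-type heart, and A29 lies among the lowest. Group means of 2.87 ± 1.76 (SD, n = 4) and 9.56 ± 6.07 TPM (SD, n = 4) went with a log2 fold change of 1.25 (SE 0.53; adjusted p = 0.183 by limma).

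Egr2, known from nerve myelination and lymphocyte activation, was at 0.110, 0.392, 0.139 and 0.254 TPM in the wild-type hearts and at 1.83, 0.102, 4.30 and 1.51 TPM in hearts A25, A29, A30 and A31. A29 had the lowest value of all 8, and the other 3 hearts labelled knockout were above every wild-type heart. The log2 fold change was 1.06 (SE 0.39, limma adjusted p = 0.153). Egr2 passed the filter of a mean of 1 TPM only through those 3 hearts, so its presence among the genes tested in heart already required a high value there.

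Junb, a Jun protein that can oppose Jun at AP-1 sites, was at 2.85, 11.8, 10.3 and 10.7 TPM in the wild-type hearts and at 20.2, 4.43, 25.4 and 22.6 TPM in hearts A25, A29, A30 and A31. Once more A25, A30 and A31 exceeded all wild-type hearts and A29 did not. The log2 fold change was 0.86 (SE 0.53, limma adjusted p = 0.321).

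Egr1, a growth- and stretch-responsive zinc finger factor, was at 0.957, 12.9, 13.4 and 11.8 TPM in the wild-type hearts and at 3.42, 2.43, 10.9 and 3.17 TPM in hearts A25, A29, A30 and A31. Wild-type heart A5 is the lowest of all and heart A30 falls just under the other wild-type hearts, so the groups overlap. The log2 fold change was -0.69 (SE 0.63) and did not pass (adjusted p = 0.504 by limma). Egr1 was the only gene of the 9 tested with a mean below that of wild-type hearts on the log2 scale. Its relative Egr2 differed in the other direction. Egr2 was tested only through hearts A25, A30 and A31, so this is not read as a contrast.

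The other genes of the group had smaller differences. Fos was at 0.423 to 5.76 TPM in wild-type hearts and 0.739 to 5.08 TPM in hearts labelled knockout, with a log2 fold change of 0.01 (SE 0.51). Fosl2 was at 1.76 to 6.32 and 2.38 to 13.4 TPM, Jun at 9.82 to 25.5 and 13.1 to 31.6 TPM, and Jund at 17.7 to 53.4 and 24.9 to 64.4 TPM. Ier2, an early response gene whose product acts in the nucleus, was at 3.08 to 13.1 and 5.23 to 12.4 TPM. The log2 fold changes of Fosl2, Jun, Jund and Ier2 were 0.48, 0.09, 0.30 and 0.35, with limma adjusted p of 0.5003, 0.884, 0.624 and 0.586. Fosb was at 0.0495 to 0.789 and 0.0487 to 0.383 TPM and was below the filter, so 9 of the 10 genes were tested.

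Of these 9, 0 were called higher and 0 lower by limma, and 2, Egr2 and Atf3, had an unadjusted p under 0.05. Egr2 was tested only through hearts labelled knockout, so its p is not read as a result, which leaves Atf3 alone. Of all 11981 heart genes tested, 0.0501% were called higher and 0% lower, and 24.6% had an unadjusted p under 0.05, so the 2 of 9 are no larger a share than that of all genes. The groups did not overlap for 0 of the 9, against 3.71% of all genes with no overlap and higher and 0.634% with no overlap and lower. The median log2 fold change was 0.35 over the 9 and 0.26 over all genes. The signs of Fos and Jun depended on the scaling: without mitochondrially encoded genes they were -0.10 and -0.085, and under median-of-ratios scaling -0.19 and -0.21, with Jund then at -0.0085.

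Without heart A29, Junb, Egr2 and Atf3 passed the threshold and were higher in the hearts labelled knockout. Leaving out each library in turn was planned, and A29 is singled out here with its values known. The 3 hearts then left had means of 22.8 ± 2.59 TPM for Junb, 2.55 ± 1.53 TPM for Egr2 and 12.2 ± 3.57 TPM for Atf3 (SD, n = 3). These are 2.55, 11.4 and 4.25 times the wild-type means. Mitochondrially encoded transcripts took 46.2%, 43.4% and 48.9% of the TPM in A25, A30 and A31, against 51.9% to 60.6% in wild-type hearts. On this scale that raises the other genes in these 3 hearts. The log2 fold changes were 1.39 (SE 0.38, limma adjusted p = 0.0174) for Junb and 1.83 (SE 0.33, adjusted p = 0.00221) for Atf3. The call of Egr2 is not read as a result, since that gene entered the test only through these 3 hearts. So 3 of 9 were called higher and 0 lower, and 2 of 8 higher with Egr2 left aside, in a comparison in which 34.8% of all 12081 genes tested were called higher and 4.16% lower. The share of the group was thus no larger than that of all genes. Junb, Egr2 and Atf3 also passed without A29 when mitochondrially encoded genes were removed, where 28.7% of all genes were called higher and 8.9% lower, and under median-of-ratios scaling, where 20.9% were called higher and 19.8% lower. In both, the call of Egr2 is again not read as a result. The fibroblast and macrophage marker sums given above for these libraries are high in the same 3 hearts and low in A29, and their part in the result was not tested. The fibroblast gene Postn was at 934 TPM in A25, 1016 TPM in A30 and 1322 TPM in A31, at 13.1 TPM in A29 and between 8.43 and 20.6 TPM in wild-type hearts.

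**Figure D2:**
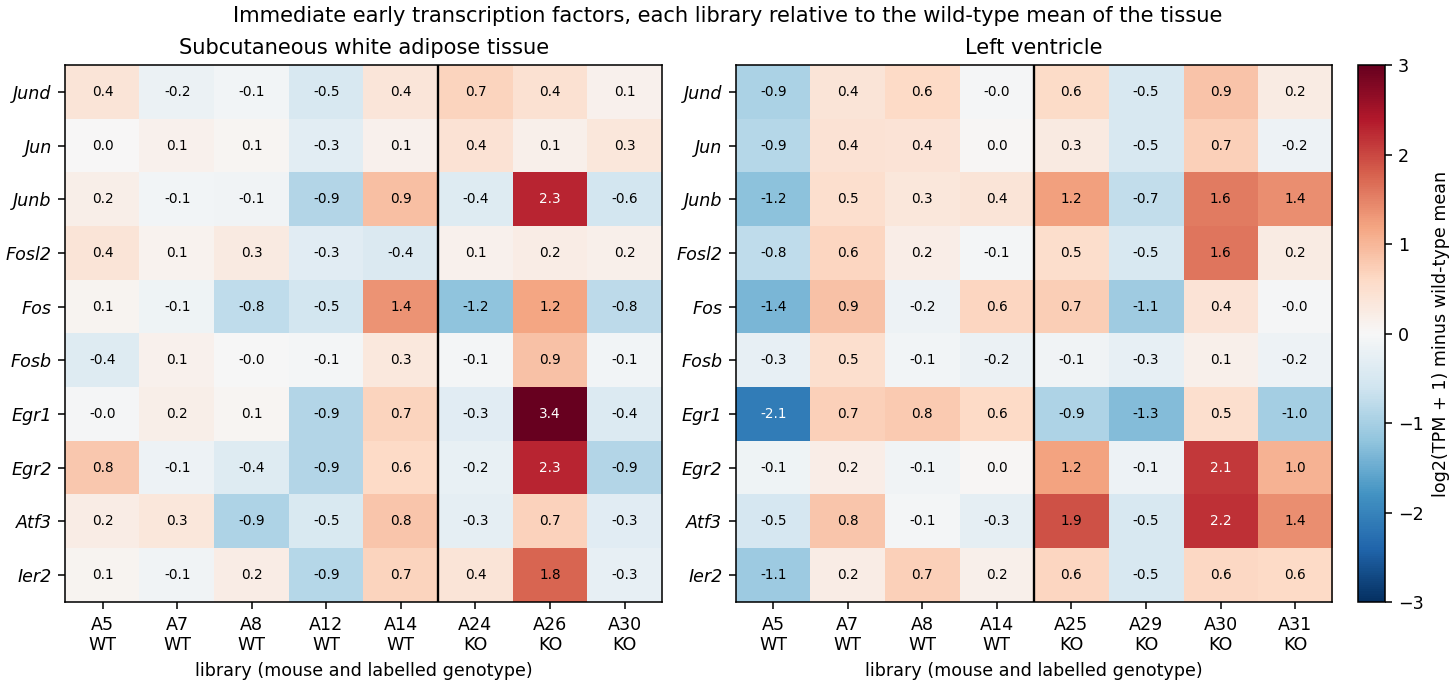
Level of each gene in each library as log2(TPM + 1) minus the wild-type mean of the tissue, with scWAT on the left and left ventricle on the right (WT, wild-type; KO, labelled knockout). In heart, Junb, Egr2 and Atf3 are above 0 in A25, A30 and A31 and below 0 in A29, and in scWAT the strongest values are those of Egr1, Junb and Egr2 in A26.

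Heart A5 had the lowest value of the 8 hearts for 8 of the 10 genes, against 71.4% of all genes tested, so its low values were shared with most of the transcriptome. Its mitochondrially encoded share, 60.6%, was the highest of the 16 libraries. With mitochondrially encoded genes removed it was still the lowest for 7 of the 10 genes, against 41.5% of all genes. Heart A30 had the highest value for 6 of the 10 genes (Fosl2, Jun, Junb, Jund, Egr2 and Atf3), against 51.9% of all genes, and had the lowest mitochondrially encoded share, 43.4%. With mitochondrially encoded genes removed A30 was still the highest for the same 6 of the 10, against 32.4% of all genes. Without A5 and A29, both left out after their values were seen, Egr1 was called lower in hearts labelled knockout, by -1.19 on the log2 scale (SE 0.38, limma adjusted p = 0.0416), and Junb, Egr2 and Atf3 higher, where 35.6% of all genes were called higher and 7.4% lower. As above, the call of Egr2 is not read as a result.

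In scWAT, the tissue in which the gene was to be deleted, no gene of the group passed the threshold. Egr1, Egr2, Junb, Ier2 and Fosb had their highest value in library A26, and the other scWAT libraries labelled knockout, A24 and A30, lay within or close to the wild-type range for these genes. Jun was the only gene of the group whose groups did not overlap.

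Egr1 was at 5.10, 6.07, 5.47, 2.37 and 8.96 TPM in wild-type scWAT (A5, A7, A8, A12 and A14). A24, A26 and A30, labelled knockout, had 3.89, 62.7 and 3.67 TPM. A26 was at 11.2 times the wild-type mean and the other libraries labelled knockout were below it. The log2 fold change was 0.86 (SE 0.80, limma adjusted p = 0.591).

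Junb was at 17.6, 14.6, 14.3, 7.99 and 29.8 TPM in wild-type scWAT, against 11.7, 79.5 and 10.3 TPM in those labelled knockout, in the same order. Egr2 was at 4.09, 1.62, 1.22, 0.587 and 3.41 TPM and at 1.48, 13.1 and 0.586 TPM. Ier2 was at 12.4, 10.7, 13.8, 6.03 and 19.2 TPM and at 15.7, 41.8 and 9.69 TPM. For all of these genes A26 alone lay above the wild-type range. Their log2 fold changes were 0.45 (SE 0.63), 0.39 (SE 0.68) and 0.63 (SE 0.45), with limma adjusted p of 0.732, 0.786 and 0.487.

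Jun was at 28.3, 30.7, 29.4, 22.5 and 30.6 TPM in wild-type scWAT, and A24, A26 and A30 had 38.3, 31.3 and 35.7 TPM. Every library labelled knockout was above every wild-type one, with A26 and A7 nearly equal. The mean was 28.3 ± 3.39 TPM (SD, n = 5) in wild-type and 35.1 ± 3.53 TPM (SD, n = 3) in labelled knockout libraries, with a log2 fold change of 0.31 (SE 0.14) that did not pass (adjusted p = 0.340 by limma). Jund was at 44.4 to 82.4 TPM in wild-type scWAT against 101, 85.7 and 68.7 TPM in A24, A26 and A30, a difference of 0.42 on the log2 scale (SE 0.23, adjusted p = 0.383).

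Fos was at 7.32, 6.27, 3.69, 4.42 and 19.2 TPM in wild-type scWAT, and the libraries labelled knockout had 2.44, 16.9 and 3.55 TPM. Its highest values were thus in 1 library of each genotype, A14 and A26, and the log2 fold change was -0.27 (SE 0.60, limma adjusted p = 0.834). Atf3 was at 2.23 to 9.97 TPM in wild-type scWAT against 4.14, 8.97 and 3.92 TPM in A24, A26 and A30, with a log2 fold change of 0.03 (SE 0.41). Fosl2 varied little, from 10.7 to 19.9 TPM in wild-type scWAT and from 16.4 to 17.5 TPM in the libraries labelled knockout, with a log2 fold change of 0.17 (SE 0.21). Fosb, at 0.153 to 0.875 TPM in wild-type scWAT and 0.446, 1.76 and 0.433 TPM in A24, A26 and A30, was below the filter here too.

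Of the 9 genes tested in scWAT, limma called 0 higher and 0 lower, and 0 had an unadjusted p under 0.05. Of all 13682 genes tested 0.0146% were called higher and 0.00731% lower, and 15.6% had an unadjusted p under 0.05. The groups did not overlap, with higher values in the libraries labelled knockout, for 1 of the 9, against 5.23% of all genes, and with lower values for 0, against 5.06%. The median log2 fold change was 0.39 over the 9 and 0.03 over all genes.

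Library A26 decided the sign of several differences. Without it the log2 fold changes of Junb, Egr1, Egr2 and Atf3 were -0.46, -0.38, -0.55 and -0.30, and that of Fos was -0.999. Of the 9, 0 were then called, where 0.923% of all 13430 genes were called higher and 0.0447% lower. The libraries labelled knockout left in this fit, A24 and A30, are those with the high skeletal muscle marker sums given above, whose part was not tested. A26 had the highest value of the 8 libraries for 5 of the 10 genes, against 24.5% of all genes. Its B and T cell marker sums, given above, stood apart, and its summed fibroblast markers were 757 TPM against 1793 to 3143 TPM in the other scWAT libraries. Its summed neutrophil markers were 191 TPM against 7.29 to 58.2 TPM, but most of this was S100a9, at 145 TPM. The neutrophil marker S100a8, at 39.5 TPM in A26, was higher in wild-type A5, A7 and A12 (48.4, 44.5 and 52.8 TPM). The part of these cells in the values of A26 was not tested. Library A12 had the lowest value for 5 of the 10 genes (Jun, Junb, Jund, Egr1 and Ier2), against 32.6% of all genes, and its summed erythrocyte markers were 32490 TPM against 1753 to 12326 TPM in the other scWAT libraries.

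**Figure D3:**
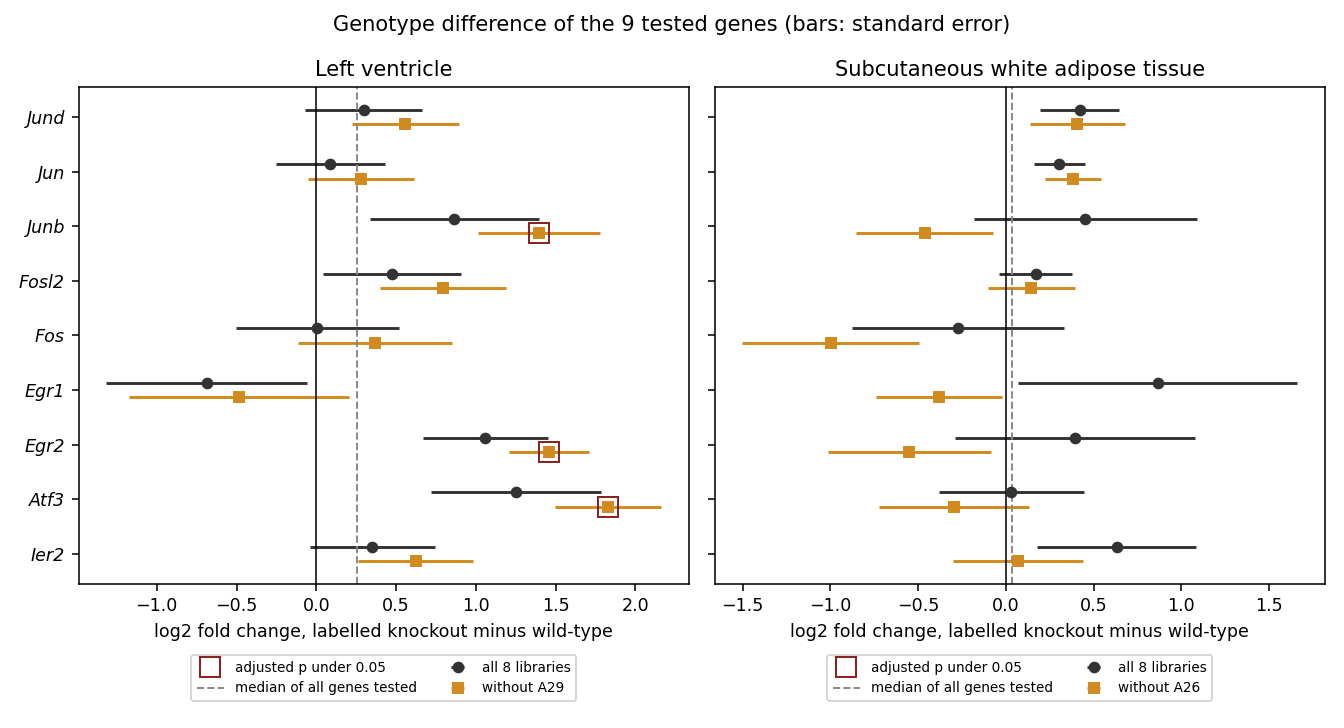
Log2 fold change (labelled knockout minus wild-type) with its standard error for the 9 tested genes in left ventricle and scWAT. Values are over all 8 libraries of the tissue and without heart A29 or scWAT A26. Without A26, the scWAT libraries labelled knockout are A24 and A30, which had high skeletal muscle markers. The dashed line is the median over all genes tested with all 8 libraries, and squares mark Junb, Egr2 and Atf3 in heart without A29, the only values drawn with an adjusted p under 0.05. Egr2 was tested in heart only through A25, A30 and A31, so its mark is not read as a result.

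Wild-type heart and wild-type scWAT were compared to place each gene in its tissue. The heart tables carry the name of a sequencing run and lane and the scWAT tables do not, so tissue and run cannot be told apart. On the TPM scale 5 of the 9 tested genes were lower in heart, but this direction held for every scaling only for Fosl2, Egr2 and Fos, and Fos then did not pass. Fosl2 was at 19.9, 16.2, 18.1, 11.6 and 10.7 TPM in the 5 scWAT libraries. The 4 hearts had 1.76, 6.32, 4.37 and 3.49 TPM, and the tissues did not overlap. Its log2 fold change, heart minus scWAT, was -1.76 (SE 0.28, limma adjusted p = 6.66e-05). It was -0.93 (adjusted p = 0.00981) without mitochondrially encoded genes, -0.48 (adjusted p = 0.048) after quantile normalization and -0.47 (adjusted p = 0.0571) under median-of-ratios scaling. Egr2 also did not overlap, with 0.587 to 4.09 TPM in scWAT and 0.110 to 0.392 TPM in heart, and differed by -1.25 on the log2 scale (SE 0.31, limma adjusted p = 0.00208). Under quantile normalization that difference was -0.51 and no longer passed (adjusted p = 0.109). With a mean of 0.224 TPM in wild-type heart, Egr2 passed the filter of 1 TPM only through scWAT. Being tested thus already required a high value in scWAT, so its direction, its call and its gap in range are not read as results.

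Fos (-1.11, SE 0.48, limma adjusted p = 0.0464), Jun (-0.56, SE 0.25, adjusted p = 0.0478) and Jund (-0.82, SE 0.30, adjusted p = 0.0206) were the other genes called lower in heart on the TPM scale. Without mitochondrially encoded genes, Fos was at -0.40 (adjusted p = 0.533), Jun at 0.41 and Jund at 0.18, and neither Jun nor Jund passed. Under median-of-ratios scaling Jun (0.87, adjusted p = 0.000127) and Jund (0.65, adjusted p = 0.011) were higher in heart. Egr1 was the gene of the group whose log2 fold change was positive under each of the 4 scalings tried (TPM, median-of-ratios, quantile and without mitochondrially encoded genes), with means of 9.79 ± 5.93 TPM (SD, n = 4) in heart and 5.59 ± 2.35 TPM (n = 5) in scWAT. Its log2 fold change was 0.44 on the TPM scale (SE 0.53, adjusted p = 0.447), 1.30 without mitochondrially encoded genes (adjusted p = 0.0689) and 1.64 under median-of-ratios scaling (adjusted p = 0.0129).

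On the TPM scale 0 of the 9 were called higher and 5 lower, where 8.55% of all 13727 genes were called higher and 77.7% lower. The ranges did not overlap for 2 genes with lower and 0 with higher values in heart, against 72.1% and 7.07% of all genes. Egr2 is among the 5 and among the 2. Since it entered the test only through scWAT, it is not read as a result there or in the counts that follow. The median log2 fold change of all genes was -1.22 and that of the 9 was -0.82. Relative to the median of all genes, Fosl2 stood at -0.54 (SE of its log2 fold change 0.28). Egr2, at -0.034 (SE 0.31), was about at the median, and the others of the 9 lay above it. Under median-of-ratios scaling, which brings that median to -0.04, 4 of the 9 (Jun, Jund, Egr1 and Ier2) were called higher and 1 (Egr2) lower, and over all genes 4494 were called higher and 4580 lower, in place of 1174 and 10661. Without mitochondrially encoded genes the median was -0.43, and 2 of the 9 were called, both lower, where 47.6% of all genes were called lower and 20.4% higher. With the mouse as a replicate block over the 4 wild-type mice that gave both tissues, 8 of the 9 were called lower on the TPM scale, Junb (-1.10, adjusted p = 0.00953), Atf3 (-0.89, adjusted p = 0.028) and Ier2 (-0.77, adjusted p = 0.0272) among them, and so were 78.3% of all genes, with 8.09% higher. The block leaves out scWAT A12, and leaving out A12 without a block also gave 8, beside 78.2% of all genes called lower. Leaving out scWAT A5, A7 or A14, or heart A5, gave 3 in each case, where 74.3% to 77% of all genes were called lower and 8.35% to 9.96% higher.

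**Figure D4:**
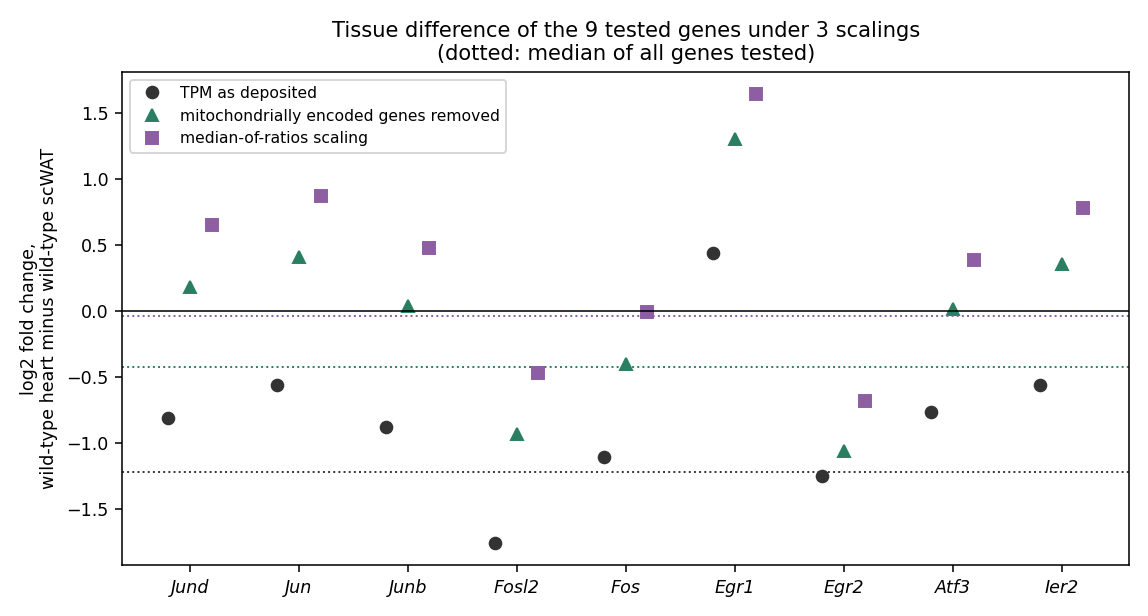
Log2 fold change (wild-type heart minus wild-type scWAT) of the 9 tested genes with TPM as deposited, with mitochondrially encoded genes removed and with median-of-ratios scaling. Dotted lines are the medians of all genes tested under each scaling, and Fosl2 and Egr2 lie below the line of their scaling in all 3. With TPM as deposited, Egr2 is about at its line (-0.034 from it, SE 0.31).

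Whether the genotype difference was different in heart and scWAT was tested with an interaction term over all 16 libraries. No gene of the 9 passed: 0 were called higher and 0 lower by limma, 0 had an unadjusted p under 0.05, against 20.5% of all 11536 genes, and 0.00867% of all genes were called higher and 0.052% lower. Atf3 had a genotype difference 1.22 larger in heart than in scWAT on the log2 scale (SE 0.73, limma adjusted p = 0.361), and without heart A29 this was 1.80 and passed (adjusted p = 0.0296), where 22.4% of all genes were called higher and 2.27% lower. For Egr1 the difference was -1.55 (SE 1.09, adjusted p = 0.437), and -0.10 without heart A29 and scWAT A26. The 1 mouse labelled knockout with both tissues, A30, had 15.6 TPM of Atf3 in heart, the highest of the 8 hearts, and 3.92 TPM in scWAT, within the wild-type range. Its Egr2 was likewise the highest of the hearts, at 4.30 TPM, and the lowest of the scWAT libraries, at 0.586 TPM.

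Genes with the pattern most like that of Fos and of Egr1 were found by the smallest root-mean-square difference of log2(TPM + 1), each gene centred on its own mean, over the 8 libraries of a tissue. In heart the 3 nearest to Fos were Otud1 (0.33), Nr4a1 (0.34) and Cpeb1 (0.35), where Fos itself varies by 0.79 about its mean. In heart the 3 nearest to Egr1 were Srrm2 (0.34), Agrn (0.34) and Leng8 (0.35), where Egr1 varies by 1.05, and Atf3 ranked 6992 of 7362 genes. In scWAT the 3 nearest to Fos were Lat2 (0.47), Atf3 (0.47) and Nup210 (0.50), with Junb the fourth, where Fos varies by 0.87. In scWAT the 3 nearest to Egr1 were Traf1 (0.28), Hcst (0.29) and Cd52 (0.30), where Egr1 varies by 1.22, and Junb ranked 10 of 10032 genes. Each of these 3 genes, all known from leukocytes, had its highest level in A26, at 42.5, 57.6 and 685 TPM. That peak follows from the way they were picked, since Egr1 itself was at 62.7 TPM in A26, and it is not a result.

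The list of other early response genes holds 48 genes, secreted, signalling and enzyme genes among them. Over all 8 hearts 0 of 44 tested were called higher and 0 lower by limma, and 6 had an unadjusted p under 0.05 (against the 24.6% of all genes given above). Ptgs2 is among the 6, and it passed the filter only through hearts labelled knockout, so its p is not read as a result. The median log2 fold change was 0.30 against 0.26 for all genes. Without A29, 17 of 45 were called higher and 0 lower, beside the 34.8% and 4.16% of all genes given above, with a median of 0.58 against 0.39. With Ptgs2 and Dusp4 left aside, whose wild-type mean was below 1 TPM, it was 15 of 43. Socs3, the feedback inhibitor of cytokine signalling, was at 0.943, 2.55, 1.602 and 1.88 TPM in wild-type hearts against 8.01, 1.14, 11.6 and 8.69 TPM in A25, A29, A30 and A31. Its log2 fold change was 1.38 over all hearts (SE 0.49, limma adjusted p = 0.149) and 1.94 (adjusted p = 0.000285) without A29. Ptgs2, which encodes cyclooxygenase-2, was at 0.111 to 0.244 TPM in wild-type hearts, 0.101 TPM in A29 and 2.62 to 3.44 TPM in the other hearts labelled knockout. Like Egr2 it passed the filter only through those hearts. Cebpd was at 1.77 to 3.73 TPM, 2.03 TPM in A29 and 8.90 to 18.2 TPM, and Gadd45b, a stress-response gene, at 2.56 to 5.44, 3.38 and 8.48 to 10.3 TPM.

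Among the dimer partners and corepressors, 0 of 11 tested were called over all 8 hearts. An unadjusted p under 0.05 was found for 3, where 24.6% of all genes had one. Batf is among the 3, and it passed the filter only through hearts labelled knockout, so its p is not read as a result. Without A29 8 of 11 were called higher and 0 lower, and 7 of 10 higher with Batf left aside, where 34.8% of all genes were called higher and 4.16% lower. Atf4, the factor of the integrated stress response that acts upstream of Atf3, was at 16.02, 42.8, 45.0 and 34.6 TPM in wild-type hearts against 105, 35.2, 94.6 and 92.0 TPM in A25, A29, A30 and A31. Its log2 fold change was 1.201 (SE 0.39, limma adjusted p = 0.142) and 1.56 (adjusted p = 0.00359) without A29. The EGR corepressor gene Nab2 was at 2.01 to 3.87 TPM in wild-type hearts, 2.31 TPM in A29 and 7.65 to 10.9 TPM in the other 3, and Nab1 at 7.23 to 11.1, 7.51 and 14.7 to 18.2 TPM. Batf, a bZIP partner of Jun proteins in immune cells, was at 0.382 to 0.631, 0.481 and 2.07 to 2.93 TPM, and it too passed the filter only through the last 3 hearts. All 4 of these genes thus had A25, A30 and A31 above, and A29 within, the wild-type range.

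Of the 22 upstream regulators, kinases and factors that switch on immediate early genes, 0 were called in heart over all 8 libraries, 2 had an unadjusted p under 0.05, and without A29 5 were called higher and 1 lower. Over all genes 24.6% had such a p, and 34.8% were called higher and 4.16% lower without A29, so the shares of this list with such a p and called higher lie below those of all genes. Map2k1 and Mapk3, which encode MEK1 and ERK1, were at 12.7 to 16.7 and 20.01 to 28.7 TPM in wild-type hearts, 14.1 and 22.4 TPM in A29, and 26.7 to 33.7 and 40.1 to 45.0 TPM in the other hearts labelled knockout. The kinase gene Rps6ka1 was at 1.47 to 2.65, 1.47 and 4.55 to 6.56 TPM. Rps6ka5, which encodes the histone kinase MSK1, was at 1.91 to 2.18 TPM in wild-type hearts, 1.75 TPM in A29 and 0.879 to 1.31 TPM in the others, and was the gene called lower without A29, by -0.55 on the log2 scale (limma adjusted p = 0.0218).

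In scWAT 0 of 45 other early response genes, 0 of 22 upstream regulators and 0 of 13 partners and corepressors were called by limma, with 11, 5 and 0 at an unadjusted p under 0.05, where 15.6% of all genes had one. The orphan nuclear receptor gene Nr4a1 was at 2.41 to 5.91 TPM in wild-type scWAT against 6.28, 14.2 and 7.51 TPM in A24, A26 and A30, with no overlap and a difference of 1.18 on the log2 scale (SE 0.30, limma adjusted p = 0.216). Cyr61, a matricellular protein gene and a target of the actin-regulated MKL cofactors and of YAP, was at 24.9 to 104 TPM in wild-type scWAT against 7.89, 27.6 and 15.8 TPM, a difference of -1.51 on the log2 scale (SE 0.48, adjusted p = 0.231). Klf2 and Zfp36l1 were at 20.9 to 36.5 and 29.1 to 55.5 TPM in wild-type scWAT and had 49.4, 57.7 and 36.1 TPM and 71.9, 118 and 59.1 TPM in A24, A26 and A30, with limma adjusted p of 0.225 and 0.233. Of the upstream regulators, Creb1 (limma adjusted p = 0.231), Elk4 (0.241) and Mkl1 (0.295) showed log2 differences of 0.54, 0.57 and 0.61, and Rps6ka3 (0.300) of -0.71. Of the partners and corepressors, Batf was at 1.37 to 4.78 TPM in wild-type scWAT, at 24.6 TPM in A26 and at 5.22 and 2.49 TPM in A24 and A30, and Nab2 at 6.06 to 10.1, 24.8, 9.03 and 9.604 TPM. Jdp2 had a log2 fold change of 0.21 there and did not pass the threshold.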

How the data were processed

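The deposited files are 1 per library and give TPM for each of 33641 gene symbols, per the file headers. Per the labels' protocols, total RNA was extracted with Trizol from frozen tissue and libraries were made with an Illumina TruSeq kit. No source used here gives the aligner, quantifier, annotation or genome build, and TPM keeps no depth, so no counting error can be given. Every library sums to 1e+06, so a large class such as mitochondrially encoded transcripts lowers all other values. Each library of a group is from a different mouse.

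Values were analysed as log2(TPM + 1), with a pseudocount of 1 that understates the change of low genes. The fit kept genes whose mean TPM over its libraries reached 1 (in either tissue for the tissue comparison, in each for the interaction) and used limma 3.58.1 under R 4.3.3 (lmFit, eBayes with trend), 2-sided, with Benjamini-Hochberg adjustment over all genes tested and a threshold of 0.05. The fits were run on simulated data with independent noise, in which the spread of each gene was capped at the median spread. Those data held no outlying library, so the run does not speak for groups such as those with heart A29 or scWAT A26. Descriptions used Python 3.11.15 and pandas 2.3.3. Antisense and near-identical genes cannot be separated in these values.

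The 10 genes and the lists were chosen with earlier results of these data known. Named from each list were the up to 4 genes with the smallest p per tissue, and for Fos and Egr1 the 3 genes of most similar pattern (mean of at least 5 TPM, no predicted, mitochondrially encoded or sex-linked genes). 1 gene that this rule names is not reported here. Myh6, Adipoq and Postn were named with their values known. Same-numbered wild-type heart and scWAT libraries are from the same mouse by the labels. The correlation of their deviations over genes was 0.039, 0.019, 0.112 and 0.097 for A5, A7, A8 and A14. Alternatives were other pseudocounts (0.25 and 5), filters (none and 5 TPM) and scalings, array weights, a shared fit over 16 libraries, the file naming style as a covariate in scWAT, leaving out each library, and the mouse as a replicate block. Added after the data were seen were fits without hearts A5 and A29, without A29 under 2 other scalings, and without heart A29 and scWAT A26.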

Additional observations from a re-analysis of the deposited data

Results flagged for a closer look

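In groups of 4 or 5 libraries, a library was singled out where its gap to the nearest other library was a large share of the group's range. This marked 6 of 30 groups of gene and library tested, where chance marks about 1 in 20 independent groups. These groups share libraries, so the 6 cannot be read against that rate. Fos in wild-type scWAT was at 19.2 TPM in A14, with the next value at 7.32 TPM. Fosb in wild-type heart was at 0.789 TPM in A7, with the next at 0.174 TPM. Wild-type heart A5 was far below the others for Junb (2.85 TPM, next 10.3 TPM) and Egr1 (0.957 TPM, next 11.8 TPM). Among hearts labelled knockout, A30 was far above the others for Egr1 (10.9 TPM, next 3.42 TPM), and A29 far below for Ier2 (5.23 TPM, next 12.1 TPM). The scWAT group labelled knockout has 3 libraries and was not examined in this way, so the values of A26 are not among these.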

How the results depend on the processing

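In heart, 4 of the 9 tested genes were called with array weights (3 higher, 1 lower, where 43.1% of all genes were called higher and 22.7% lower), 4 without hearts A5 and A29, 3 without mitochondrially encoded genes and heart A29, and 3 with median-of-ratios scaling and without A29, where Jun was at -0.19. Leaving out each library in turn gave 0 to 3, the 3 without A29. Where Egr2 was tested in heart or for the interaction with the filter of 1 TPM, it entered only through hearts labelled knockout. Its calls in these counts are not read as results. Without A5 and A29 the log2 fold changes of Fos and Jun were -0.087 and -0.0075. That of Fos was -0.022 with a pseudocount of 5, and that of Jun -0.064 with array weights. Under median-of-ratios scaling Fos, Jun and Jund were at -0.19, -0.21 and -0.0085, under quantile normalization Fos and Jun at -0.23 and -0.19, and without mitochondrially encoded genes at -0.10 and -0.085. Leaving out each heart gave ranges of -0.45 to 0.37 for Fos, -0.20 to 0.28 for Jun, -0.018 to 0.56 for Jund and -0.0095 to 0.62 for Ier2. In scWAT 0 were called under each alternative run, the naming style included. Array weights gave -0.30, -0.15, -0.40 and -0.31 for Junb, Egr1, Egr2 and Atf3, and quantile normalization -0.14 for Atf3. Leaving out each scWAT library gave -0.46 to 0.95 for Junb, -0.38 to 1.503 for Egr1, -0.55 to 1.02 for Egr2, -0.30 to 0.24 for Atf3 and -0.999 to 0.19 for Fos. For wild-type heart against wild-type scWAT, 2 genes were called with no filter, 2 without mitochondrially encoded genes, 8 with the mouse as a replicate block and 3 to 8 on leaving out each library. Of all genes, 49.8% were called lower and 6.35% higher with no filter. On leaving out each library, 74.3% to 78.2% were called lower and 7.82% to 9.96% higher. Egr2 passed the filter of 1 TPM in this comparison only through scWAT, so its calls are not read as results. Jun, Junb, Jund, Atf3 and Ier2 turned positive there, at 0.87, 0.48, 0.65, 0.38 and 0.78 under median-of-ratios scaling, 0.81, 0.46, 0.57, 0.37 and 0.75 under quantile normalization, and 0.41, 0.036, 0.18, 0.012 and 0.35 without mitochondrially encoded genes. For the interaction, 4 were called with array weights (3 higher and 1 lower, against 3461 and 1802 of all 11536 genes), 3 without heart A29 and scWAT A26 (all higher, against 22.2%), 0 to 1 on leaving out each library, and 0 with the mouse as a replicate block. Where a value turned or a count moved, the cause was not tested. Within a tissue no mouse number is shared between genotypes, so no block could be fitted there.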
